A study of Rattus norvegicus with 6 samples.

Results

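The mitochondrial ribosomal proteins are the proteins of the ribosome inside mitochondria. All of them are encoded in the nucleus, made in the cytosol and imported. The genes were chosen by name: every probe whose RefSeq accession mapped to a rat symbol that begins with Mrpl (named for the large subunit) or Mrps (named for the small subunit). This gave 63 genes with 1 probe each, of 13876 genes named and 24614 probes carried forward on the array. The gene table lists 78 coding genes with such symbols. Of the 63, 40 were Mrpl and 23 were Mrps.

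The arrays of 2 groups from male Wistar rats were compared. The first 3 came from the border zone of a myocardial infarct, the tissue at the edge of the muscle cut off from blood. There the left anterior descending coronary artery had been tied for 6 h and the zone was found with TTC and EB staining (arrays M17, M24 and M25). The other 3 came from the control zone of sham-operated hearts at 6 h (C4, C5 and C6). TRIzol-extracted RNA was labelled with Cy3 and read on 1-colour Agilent arrays, with 3 rats per group by the design.

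The mitochondrial ribosome translates only the messages of the mitochondrial genome, which encode core subunits of the respiratory chain and of ATP synthase. Its large subunit holds the peptidyl transferase centre and its small subunit decodes the message. Some of its proteins have counterparts in bacterial ribosomes and others are found only in mitochondria. Heart muscle depends on respiration for its ATP, and mutations of human mitochondrial ribosomal proteins such as MRPL3 and MRPL44 are known to cause cardiomyopathy.

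Values are the normalized log2 signal, the log2 of the processed spot signal minus the 75th percentile of that array. A value of 0 is therefore a probe as bright as the 75th percentile, and the levels of different probes are not compared. The share of probes well above background was 74.3%, 77.3% and 78.3% on M17, M24 and M25, against 73.7%, 50.9% and 52.4% on C4, C5 and C6. The border-zone arrays and C4 belong to 1 scan, and C5 and C6 to a scan each. Fold changes of many genes are therefore also given against C4 alone. That comparison has no replicate sham array, so its p-values hold only the spread between M17, M24 and M25. M25 is in doubt as an independent sample: it lay between M17 and M24 for 558 of the 572 tested probes (97.6%) that differed by over 2-fold between them, and for 43 of the 56 tested mitochondrial ribosomal protein genes (76.8%). The 11 cardiomyocyte markers on the array, all well above background on all 6 arrays, summed to 708 to 821 times the 75th-percentile signal in border zone and 779 to 973 in sham. The 8 monocyte and macrophage markers summed to 62.0 to 64.9 in border zone and 24.5 to 33.5 in sham. Lyz2 made most of that sum, at 47.1 to 50.2 in border zone and 12.5 to 19.3 in sham, and Adgre1 of the same list fell by 0.77 on the log2 scale (limma adjusted p = 0.0428). The 7 neutrophil markers summed to 4.54 to 5.01 in border zone and 0.171 to 0.348 in sham. Of those neutrophil markers, 1 was well above background on all 6 arrays. The 8 central neuron markers summed to 0.258 to 0.362 in border zone, against 0.483 in C4, 4.74 in C5 and 4.44 in C6. Astrocyte markers (5) summed to 1.07 to 1.47 in border zone, against 0.960, 6.55 and 7.67 in C4, C5 and C6, and oligodendrocyte markers (6) to 2.55 to 3.18 in border zone, against 5.27, 11.2 and 13.6 in C4, C5 and C6. Red cell markers (4) summed to 63.1, 7.51 and 46.6 in M17, M24 and M25, against 53.1 to 70.2 in sham, with M24 apart from the rest. The part of these cells and scans in the results below was not tested.

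Most mitochondrial ribosomal protein mRNAs were measured within 2-fold of the sham level in the border zone at 6 h. Of the 56 genes tested, 2 rose (Mrpl54 and Mrpl27), 2 fell (Mrpl40 and Mrpl35) and 52 did not pass limma's test at a Benjamini-Hochberg adjusted p of 0.05. The 4 genes that passed are all named for the large subunit. They make 7.14% of the family, where 19.3% of all 17930 probes tested passed, 9.01% higher and 10.3% lower. At an unadjusted p under 0.05 limma had 12 of the 56 (21.4%), beside 36.4% of all probes. No member differed by 2-fold or more, as 13.9% of all probes tested did. Log2 fold changes of border zone over sham ran between -0.98 and 0.70 with a median of -0.11, beside a median of -0.03 over all probes tested. The central part of the members, between the quartiles, lay between -0.27 and 0.21, beside -0.38 and 0.36 for all probes. The sign of the median depended on the scaling: with each array set to its median in place of its 75th percentile every log2 fold change was higher by 0.19, and the median was 0.08 for the members and 0.16 for all probes. In that setting 3 members were called higher and 1 lower, and of all probes 1935 higher and 929 lower, where the main scaling gave 1615 and 1845. With quantile normalization the members' median was -0.15 and that of all probes 0.09, and with normexp background correction -0.05 and -0.35, so the members lay below all probes in some settings and above them in another.

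The estimates were narrow. The 95% interval lay inside 2-fold in both directions for 52 of the 56 members (92.9%), and for 56.6% of all probes tested. The other 4 were Mrpl40, Mrpl54, Mrpl50 and Mrpl12. The median standard error was 0.14 for the members and 0.19 for all probes. Members were more often bright: 51 of the 63 were well above background on all 6 arrays, beside 11936 of the 24614 probes carried. The part of brightness in the narrow intervals was not tested. The 2 groups of arrays did not overlap for 24 members (42.9%), and for 43.7% of all probes. Against C4 alone the members' median was -0.02, beside -0.04 for all probes, and 44 of the 56 kept the sign of the pooled estimate. With scan as a block, Mrpl40 and Mrpl35 passed, where 15.9% of all probes passed. By limma 0 members passed higher there. At an unadjusted p under 0.05, 9 of 56 were higher (16.1%), beside 18.0% of all probes.

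Without M25 no member passed in limma, and 2.83% of all probes did. At an unadjusted p under 0.05 that fit had 4 of 57 members (7.02%), beside 23.4% of all probes. Over the 56 genes, the median deviation of an array from each gene's mean was 0.03 in M17, -0.13 in M24 and -0.07 in M25, against -0.02 in C4, 0.05 in C5 and 0.15 in C6. M17 lay among the sham arrays by this measure, so the groups overlapped. In C5 and C6 both, 34 members were above their C4 value and 15 were below it.

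**Figure D1:**
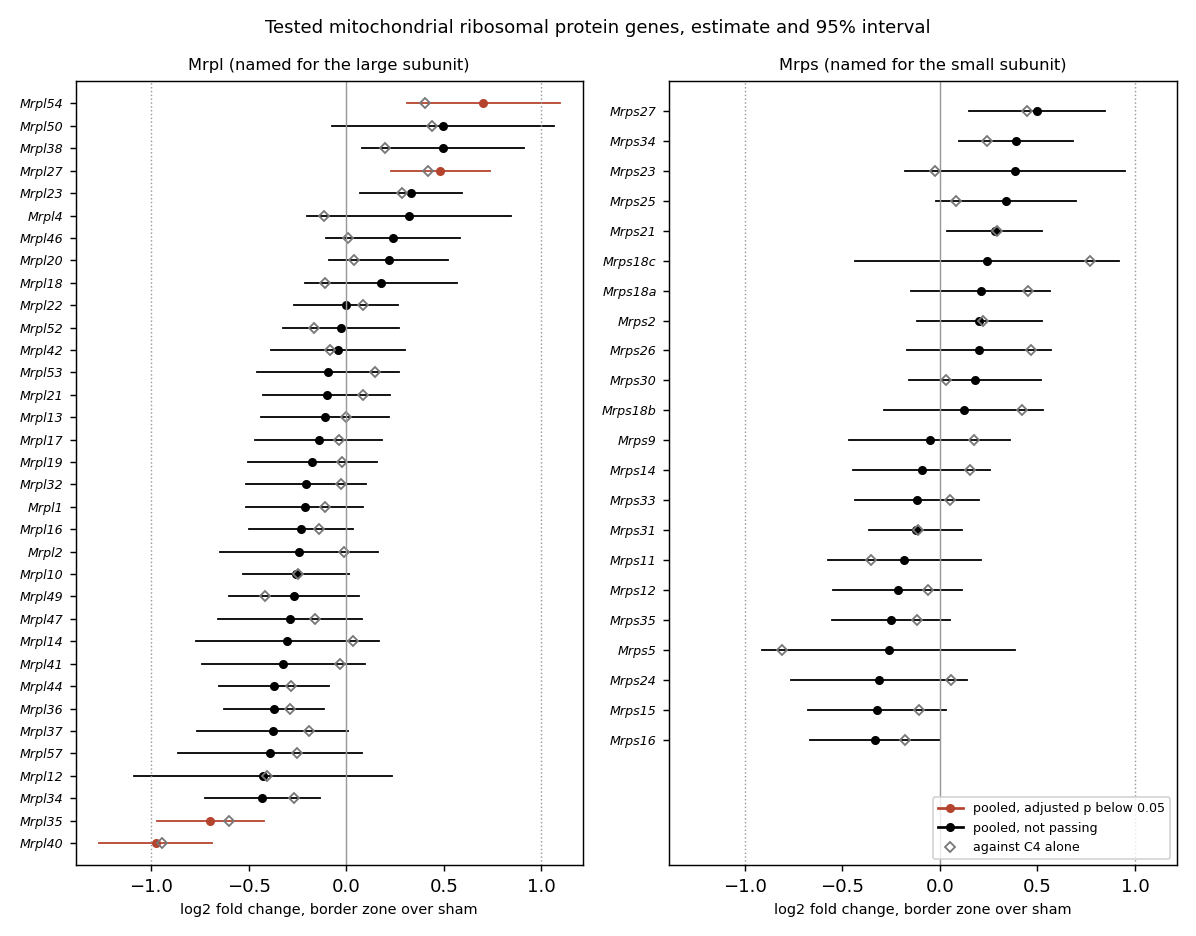
Log2 fold change of border zone over sham (horizontal axis) for each of the 56 tested genes (vertical axis), with Mrpl genes on the left and Mrps genes on the right. Filled points and lines are the limma estimate and its 95% interval (n = 3 arrays per group), red where the adjusted p was below 0.05, open diamonds are the estimate against C4 alone, and dotted lines mark 2-fold. Red points are Mrpl54 and Mrpl27 to the right of 0 and Mrpl35 and Mrpl40 to the left, and 52 of the 56 intervals lie between the dotted lines.

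Mrpl40, a large-subunit protein found only in mitochondria, fell most. Its normalized log2 signal was 0.28, 0.016 and 0.13 in border-zone M17, M24 and M25, against 1.09, 1.19 and 1.09 in sham C4, C5 and C6. All border-zone arrays were below all sham arrays, and C4 stood with C5 and C6. The log2 fold change was -0.98 ± 0.12 (SE, n = 3 per group; 95% interval -1.27 to -0.69; limma adjusted p = 0.00596), with the border zone at 0.508 times the sham level. In bulk tissue, fewer cells of a type and less RNA per cell cannot be told apart. Against C4 the estimate was -0.94 (adjusted p = 0.0321 with scan as a block), and without M25 the limma adjusted p was 0.0597.

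Mrpl35, the counterpart of a bacterial large-subunit protein, also fell. Its signal was 2.62, 2.46 and 2.53 in border-zone M17, M24 and M25, against 3.14, 3.32 and 3.25 in sham C4, C5 and C6. The groups did not overlap, and C4 was the lowest sham array. The log2 fold change was -0.70 ± 0.11 (SE, n = 3 per group; 95% interval -0.97 to -0.42; limma adjusted p = 0.0130), or 0.617 times the sham level. Against C4 it was -0.60 (adjusted p = 0.0440 with scan as a block). The limma adjusted p was 0.0630 without M24, 0.100 without M25 and 0.0501 without C5.

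Mrpl54, a large-subunit protein found only in mitochondria, rose most. Its signal was 3.92, 3.998 and 3.95 in border-zone M17, M24 and M25, against 3.55, 3.05 and 3.15 in sham C4, C5 and C6. The border-zone arrays were all above the sham arrays, and C4 was the sham array nearest to them. The log2 fold change was 0.70 ± 0.16 (SE, n = 3 per group; 95% interval 0.31 to 1.09; limma adjusted p = 0.0333), 1.63 times the sham level. The mean of C5 and C6 was lower than C4 by 0.45, and against C4 the estimate was 0.40 (adjusted p = 0.0678 with scan as a block).

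Mrpl27 is the counterpart of the bacterial protein whose tail reaches toward the peptidyl transferase centre. Its signal was 0.66, 0.68 and 0.63 in border-zone M17, M24 and M25, against 0.24, 0.19 and 0.090 in sham C4, C5 and C6. The groups did not overlap, and the border-zone arrays lay closer together than the sham arrays. It rose by 0.48 ± 0.10 on the log2 scale (SE, n = 3 per group; 95% interval 0.23 to 0.74; limma adjusted p = 0.0287), 1.40 times the sham level. Against C4 the estimate was 0.42 (adjusted p = 0.0596 with scan as a block). Without M25 the limma adjusted p was 0.146 for Mrpl54 and 0.152 for Mrpl27, and neither passed without M17, M24, C5 or C6 either.

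**Figure D2:**
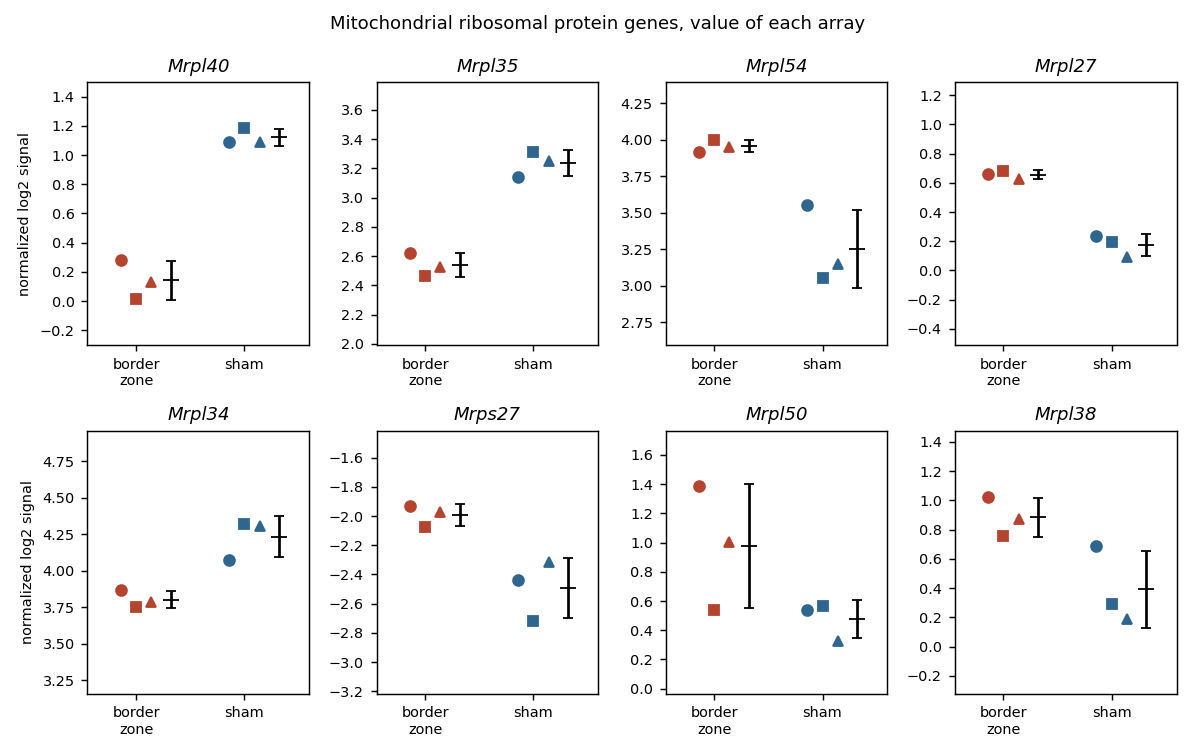
Normalized log2 signal (vertical axis) of the genes that passed and of those with the largest fold changes that did not, per array. Border-zone arrays are red on the left of each panel (circle M17, square M24, triangle M25), sham arrays are blue on the right (circle C4, square C5, triangle C6), and bars are the mean ± SD (n = 3). Mrpl40 and Mrpl35 are lower in all border-zone arrays than in any sham array, Mrpl54 and Mrpl27 are higher, and Mrpl50 overlaps between the groups.

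Among the large-subunit genes that did not pass, 3 had the largest estimates. Mrpl50, a mitochondria-specific protein, had 1.39, 0.54 and 1.00 in border-zone M17, M24 and M25, against 0.54, 0.57 and 0.33 in sham C4, C5 and C6. M17 was high and M24 lay within the sham range. Its log2 fold change was 0.50 ± 0.23 (limma adjusted p = 0.181). Mrpl38, whose sequence resembles phosphatidylethanolamine-binding proteins, had 1.02, 0.76 and 0.87 in border-zone M17, M24 and M25, against 0.69, 0.29 and 0.19 in sham C4, C5 and C6. Its border-zone arrays were all above its sham arrays, with C4 close below them. The log2 fold change was 0.49 ± 0.17 (limma adjusted p = 0.0931), and 0.20 against C4. Mrpl34, the counterpart of a bacterial protein, had 3.87, 3.75 and 3.78 in border-zone M17, M24 and M25, against 4.07, 4.32 and 4.31 in sham C4, C5 and C6. The groups did not overlap. The log2 fold change was -0.43 ± 0.12 (limma adjusted p = 0.0574), and -0.27 against C4.

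Several other large-subunit probes gave values near the threshold or close to no difference. Mrpl36, another bacterial counterpart, had 2.20, 2.24 and 2.18 in border-zone M17, M24 and M25, against 2.50, 2.58 and 2.65 in sham C4, C5 and C6, a log2 fold change of -0.37 (limma adjusted p = 0.0580). Mrpl23, also of bacterial descent, had 2.61, 2.54 and 2.53 in border-zone M17, M24 and M25, against 2.28, 2.13 and 2.28 in sham C4, C5 and C6, a log2 fold change of 0.33 (limma adjusted p = 0.0793). In both genes the groups did not overlap. Mrpl13, among the members with the highest mean signal, had a log2 fold change of -0.11 (limma adjusted p = 0.587), and Mrpl4, another of them, 0.32 (limma adjusted p = 0.324). In Mrpl4 the sham array C4 stood apart from C5 and C6: it had 4.59, 4.31 and 4.42 in border-zone M17, M24 and M25, against 4.55, 3.93 and 3.88 in sham C4, C5 and C6, and -0.11 against C4. The cardiomyopathy gene Mrpl44, an RNase III-like protein, had a log2 fold change of -0.37 (limma adjusted p = 0.0748). It was singled out after its values were seen.

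As a group the 34 tested Mrpl genes had a median log2 fold change of -0.19, with 25 below 0. Against C4 alone that median was -0.06, and it was 0.0005 with each array set to its median. The 22 tested Mrps genes had a median of 0.04, and 0.07 against C4. None of them passed in limma, and 3 had an unadjusted p under 0.05, beside 36.4% of all probes. Whether the large and small subunits differed was not tested. By descent, 34 tested members have a counterpart in bacteria, of which Mrpl27 rose and Mrpl35 fell, with a median of -0.18. The 22 mitochondria-specific members, of which Mrpl54 rose and Mrpl40 fell, had a median of -0.04. Both classes thus held 1 gene that rose and 1 that fell.

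Of the small subunit, Mrps27, a pentatricopeptide repeat protein, had the largest estimate. It had -1.93, -2.08 and -1.97 in border-zone M17, M24 and M25, against -2.44, -2.72 and -2.32 in sham C4, C5 and C6. All border-zone arrays were higher than all sham arrays. The log2 fold change was 0.50 ± 0.14 (limma adjusted p = 0.0592), and 0.45 against C4. Mrps31 had the narrowest interval of all members, with -1.39, -1.39 and -1.34 in border-zone M17, M24 and M25, against -1.26, -1.25 and -1.24 in sham C4, C5 and C6. Its groups were apart by little, a log2 fold change of -0.12 (95% interval -0.36 to 0.12; limma adjusted p = 0.396). Mrps21, a counterpart of a bacterial protein, had 1.06, 1.12 and 1.11 in border-zone M17, M24 and M25, against 0.81, 0.78 and 0.86 in sham C4, C5 and C6. Again the groups were apart, with a log2 fold change of 0.28 (95% interval 0.036 to 0.52; limma adjusted p = 0.102). Mrps18a and Mrps30 carry small-subunit names but sit in the large subunit, and their log2 fold changes were 0.21 and 0.18 (limma adjusted p of 0.341 and 0.388). Against C4 these were 0.45 and 0.03. Both genes were named after their values were seen. Mrps16, of bacterial descent and among the members with the highest mean signal, had a log2 fold change of -0.33 (limma adjusted p = 0.138). Against C4 it was -0.18.

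The number of members called also depended on which probes were tested. Where only probes well above background on all 6 arrays were tested, 11 of 51 members passed and 36.0% of all such probes did. The 6 that were higher were Mrpl23, Mrpl27, Mrpl54, Mrps21, Mrps27 and Mrps34, and the 5 that were lower were Mrpl34, Mrpl35, Mrpl36, Mrpl40 and Mrpl44. Of the 63 members, 7 were too dim to test: Mrpl3, Mrpl15, Mrpl30, Mrpl45, Mrpl48, Mrpl55 and Mrps17. Of these, Mrpl3 was well above background on M24 and M25, Mrpl48 on M24, Mrpl55 on M17 and M24, and the other 4 on no array. A further 5 were tested with fewer than 3 sham arrays well above background: Mrpl12, Mrpl52, Mrps5 and Mrps23 on C4 only and Mrps35 on none. None of these 5 passed. Mrpl12, the stalk protein that also binds the mitochondrial RNA polymerase, is 1 of them, so its log2 fold change of -0.42 (limma adjusted p = 0.302) rests on dim sham signal.

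The promoters of Mrpl40, Mrpl27 and Mrpl54, 3 of the 4 genes that passed, are shown because regulators of mitochondrial genes are treated next. No promoter was listed for Mrpl35, so it was not searched. They are RefSeq sequences of the GRCr8 assembly, + strand, from 250 bases before to 50 bases after the start site. Capitals mark a match to 1 of the 4 motifs searched. Mrpl40 lies at chr11:95637501-95637800 and has no match, Mrpl27 at chr10:80092095-80092394 with the ETS motif at -61, and Mrpl54 at chr7:9103275-9103574 with the E-box at +17.
Mrpl40: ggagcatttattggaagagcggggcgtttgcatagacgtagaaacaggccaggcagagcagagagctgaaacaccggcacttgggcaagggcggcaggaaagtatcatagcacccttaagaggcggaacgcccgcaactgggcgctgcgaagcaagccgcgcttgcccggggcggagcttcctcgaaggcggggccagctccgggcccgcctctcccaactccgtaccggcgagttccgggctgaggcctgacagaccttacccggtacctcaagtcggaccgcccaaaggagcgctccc
Mrpl27: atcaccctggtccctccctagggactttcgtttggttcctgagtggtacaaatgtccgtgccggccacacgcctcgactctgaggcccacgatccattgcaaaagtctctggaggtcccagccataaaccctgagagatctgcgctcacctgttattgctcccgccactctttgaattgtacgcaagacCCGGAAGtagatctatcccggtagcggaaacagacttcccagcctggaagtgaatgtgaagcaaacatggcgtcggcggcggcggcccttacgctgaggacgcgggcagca
Mrpl54: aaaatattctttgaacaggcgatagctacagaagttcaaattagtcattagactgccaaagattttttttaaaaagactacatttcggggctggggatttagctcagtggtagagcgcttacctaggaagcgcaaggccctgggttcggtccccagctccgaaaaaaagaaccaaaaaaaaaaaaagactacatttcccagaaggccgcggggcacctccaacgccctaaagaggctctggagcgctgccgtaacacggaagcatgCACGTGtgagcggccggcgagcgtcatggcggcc

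The motifs were GCGCNTGCG (NRF1), CCGGAAG (the ETS family, to which the Gabpa protein belongs), AAGATGGCG (YY1) and CACGTG (the E-box bound by Myc), on both strands. The first 3 letters of the YY1 motif are the last 3 of the ETS motif, so 1 stretch can match both. Promoters were listed for 52 of the 63 members. The ETS motif was in 18 of them (34.6%), beside 8.74% of all 33469 promoters. The NRF1 motif was in 12 (23.1%), beside 5.75%, and the YY1 motif in 8 (15.4%), beside 1.73%. The E-box was in 6 (11.5%), beside 6.42%. A motif of any of these kinds was in 32 of the 52 (61.5%), beside 19.4% of all promoters. All promoters include those of genes not tested on the array. Among tested genes with a promoter entry, 1411 had the ETS motif and 7584 did not, beside 15 and 31 members. For NRF1 the counts were 1024 and 7971, beside 10 and 36 members, and for YY1 280 and 8715, beside 8 and 38. For the E-box they were 808 and 8187, beside 5 and 41 members. These are matches of letters, not shown to be sites.

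Some of these genes start beside a gene read the other way. Of the 52 members with a promoter entry, 16 had such a neighbour with its start within 1000 bases, and 11 distinct pairs had both genes tested. Over all probes tested, 19.3% passed. In 1 of the 11 the neighbour passed, and it fell: Klc4, a kinesin light chain gene beside Mrpl2, with a log2 fold change of -0.82 ± 0.16 (limma adjusted p = 0.0211) and -0.55 against C4 (adjusted p = 0.0523 with scan as a block). Mrpl2 itself had -0.24 (limma adjusted p = 0.334). Mrpl40 starts 186 bases from Hira, a histone chaperone gene. Hira had a log2 fold change of -0.04 ± 0.11 (limma adjusted p = 0.812), where Mrpl40 fell by 0.98. Mrpl27 starts 44 bases from Eme1, an endonuclease subunit gene, with a log2 fold change of -0.13 ± 0.34 (limma adjusted p = 0.799), where Mrpl27 rose by 0.48.

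Changes were called among the regulators known to act on nuclear genes for mitochondria. Of 8 tested, 2 rose (Myc and Nrf1), 2 fell (Ppargc1a and Gabpa) and 4 did not pass. The share that passed was 50%, beside 19.3% of all probes tested, in a list chosen with earlier results of these data known. Ppargc1a, a coactivator that promotes mitochondrial biogenesis, had -2.93, -2.90 and -2.86 in border-zone M17, M24 and M25, against -1.73, -2.02 and -1.85 in sham C4, C5 and C6. The groups did not overlap, with a log2 fold change of -1.03 ± 0.12 (limma adjusted p = 0.00530) and -1.16 against C4. Gabpa, the DNA-binding subunit of an ETS factor, had 0.41, 0.028 and 0.16 in border-zone M17, M24 and M25, against 0.81, 0.89 and 0.74 in sham C4, C5 and C6. Its log2 fold change was -0.61 ± 0.14 (limma adjusted p = 0.0329) and -0.60 against C4.

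Nrf1, a transcription factor of nuclear genes for respiration, had -1.47, -0.91 and -1.21 in border-zone M17, M24 and M25, against -1.89, -2.38 and -2.23 in sham C4, C5 and C6. Its groups did not overlap, with a log2 fold change of 0.97 ± 0.20 (limma adjusted p = 0.0262) and 0.70 against C4. Myc, a growth regulator that also acts on ribosome genes, had 1.76, 1.79 and 1.81 in border-zone M17, M24 and M25, against -2.50, -2.72 and -2.55 in sham C4, C5 and C6. This was the widest gap among these genes, 4.37 ± 0.11 on the log2 scale (limma adjusted p = 0.000371) and 4.28 against C4. With scan as a block Myc and Ppargc1a passed, with adjusted p of 0.00353 and 0.0140, and Nrf1 and Gabpa had 0.133 and 0.103. Without M25 Myc passed (limma adjusted p = 0.0113), and the others had 0.0515 (Ppargc1a), 0.120 (Nrf1) and 0.159 (Gabpa).

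**Figure D3:**
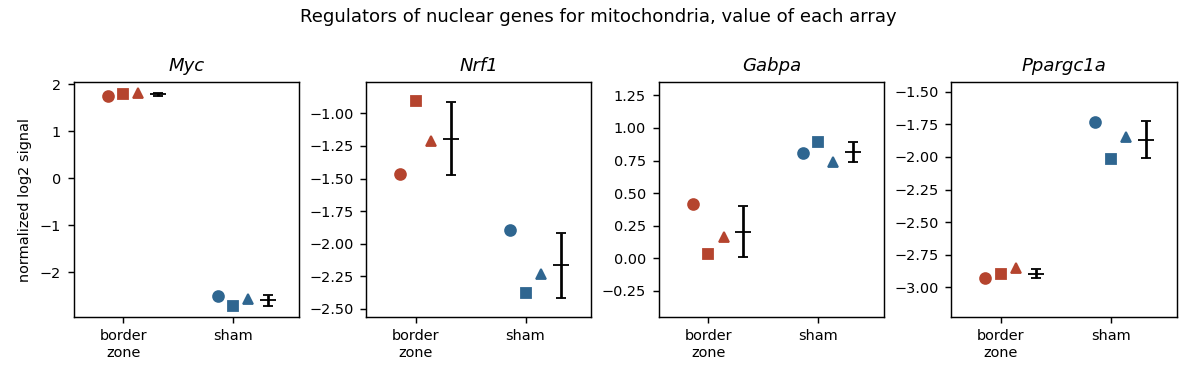
Normalized log2 signal (vertical axis, a scale of its own per panel) of the 4 regulators that passed, per array. Border-zone arrays are red on the left (circle M17, square M24, triangle M25), sham arrays are blue on the right (circle C4, square C5, triangle C6), and bars are the mean ± SD (n = 3). Myc and Nrf1 are higher in the border zone, Gabpa and Ppargc1a are lower, and in none of the 4 do the groups overlap.

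Mitochondrial ribosomal proteins that carry other names were also mostly close to the sham level. Dap3, Ptcd3, Chchd1, Aurkaip1 and Gadd45gip1 were tested. By limma 0 of these 5 passed and 1 had an unadjusted p under 0.05, where 36.4% of all probes did. The median log2 fold change was 0.11, or 0.03 against C4. Aurkaip1 had the smallest p, with a log2 fold change of 0.51 (limma adjusted p = 0.0935) and 0.18 against C4. Of the 9 tested mitochondrial translation factors none passed in limma's pooled fit, and 2 had an unadjusted p under 0.05. Their log2 fold changes ran between -0.55 and 1.04, with a median of 0.17. Against C4 that median was -0.18, and it was -0.09 with normexp. Taco1, an activator of cytochrome oxidase subunit translation, had the smallest p, with a log2 fold change of -0.55 (limma adjusted p = 0.0766).

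Among the 13 tested genes for charging mitochondrial tRNAs, none rose in limma, where 9.01% of all probes did. Qrsl1, a subunit of the amidotransferase that makes glutaminyl-tRNA, fell. It had 1.69, 1.59 and 1.70 in border-zone M17, M24 and M25, against 2.35, 2.48 and 2.43 in sham C4, C5 and C6. The groups did not overlap, and the log2 fold change was -0.76 ± 0.11 (limma adjusted p = 0.00897) and -0.69 against C4. It passed with scan as a block (adjusted p = 0.0317) but not without M25 (limma adjusted p = 0.0761).

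Of 22 tested genes for assembly of the mitochondrial ribosome and modification of its RNA, 1 rose and 1 fell (9.09%, beside 19.3% of all probes). Malsu1, an assembly factor of the large subunit, had 2.59, 2.43 and 2.48 in border-zone M17, M24 and M25, against 1.93, 1.66 and 1.49 in sham C4, C5 and C6. All border-zone arrays were higher, with a log2 fold change of 0.80 ± 0.15 (limma adjusted p = 0.0188), and 0.57 against C4 (adjusted p = 0.0486 with scan as a block). Ybey, a homologue of a bacterial endoribonuclease, fell by 0.60 (limma adjusted p = 0.0397), and its estimate against C4 was -0.81. C4 was the only sham array where Ybey was well above background. Of 19 tested genes for mitochondrial DNA upkeep, transcription and RNA handling, 1 rose and 2 fell (15.8%, beside the same 19.3%). Elac2, which cuts tRNA ends, rose by 0.81 (limma adjusted p = 0.0277). Mterf2, a relative of the mitochondrial termination factor, fell by 1.03 (limma adjusted p = 0.0128), and Tefm, the mitochondrial transcription elongation factor, fell by 0.50 (limma adjusted p = 0.0365). Against C4 these 3 were 0.56, -0.87 and -0.34, and none passed with scan as a block. Without M25 the limma adjusted p of these 5 genes lay between 0.0849 and 0.178.

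The cytosolic ribosomal proteins, which build the ribosomes outside mitochondria, gave mostly positive estimates. Of 63 tested, 12 rose and none fell, where 9.01% of all probes rose, 60 had an estimate above 0, and the median log2 fold change was 0.42, or 0.25 against C4. The median of the 56 mitochondrial ribosomal proteins was -0.11, or -0.02 against C4, and 20 were above 0. The difference between these lists was not tested. Among those that rose were Rpl12 (log2 fold change 0.79, limma adjusted p = 0.00815), Rps13 (0.73, limma adjusted p = 0.0140), Rpl34 (0.66, limma adjusted p = 0.0321) and Rpl14 (0.61, limma adjusted p = 0.0305). With quantile normalization 4 of the 63 rose, with scan as a block 7 did, and without M25 limma passed 0 of them (20 had an unadjusted p under 0.05). The median stayed above 0 under each scaling, at 0.61 with each array set to its median, 0.28 with quantile normalization and 0.51 with normexp. The nuclear-encoded subunits of the respiratory chain and ATP synthase, whose partners the mitochondrial ribosome makes, were close to the sham level. None of the 73 passed in limma's pooled fit and 7 had an unadjusted p under 0.05, beside 19.3% and 36.4% of all probes. With normexp 1 of the 73 fell, where 7.19% of all probes did. The median of these subunits was -0.07, and 0.12 with each array set to its median, and 70 of 73 intervals lay inside 2-fold. Ndufb11, a complex I subunit well above background on C4 alone among the sham arrays, had the smallest p, with a log2 fold change of -0.47 (limma adjusted p = 0.0580).

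**Figure D4:**
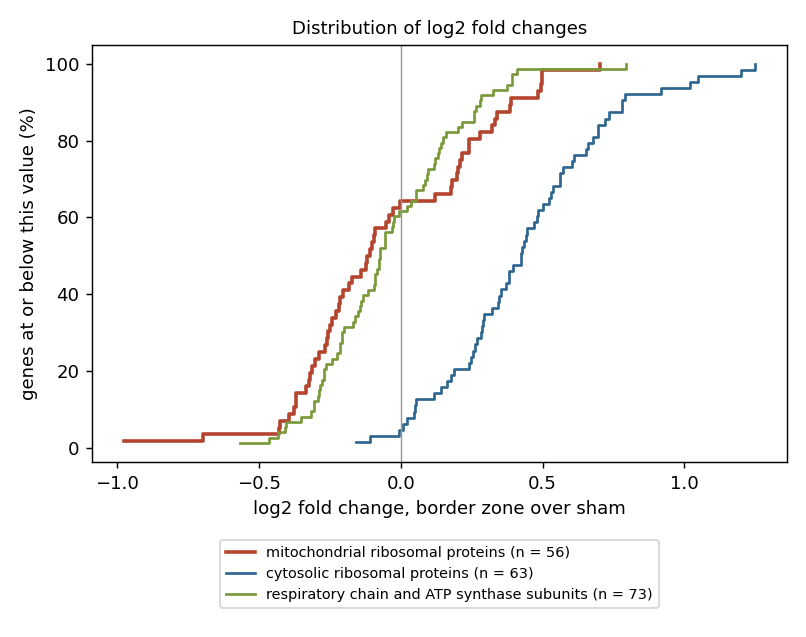
Share of genes (vertical axis, percent) at or below each log2 fold change of border zone over sham (horizontal axis), for the mitochondrial ribosomal proteins (thick red line, 56 genes), the cytosolic ribosomal proteins (blue line, 63 genes) and the respiratory chain and ATP synthase subunits (green line, 73 genes). The red and green lines cross 0 near the middle of their range, with medians of -0.11 and -0.07, and the blue line lies to their right with a median of 0.42.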

How the data were processed

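Per the file headers and the submitters' processing notes, Agilent Feature Extraction 11.0.1.1 produced the deposited intensity of each spot, with no normalization between arrays. Deposited flags of 0 or 1 mark control, outlier, saturated and well-above-background spots. The authors also deposited a table of log2 values, used as an alternative (24415 of its 24529 probes matched); its centring and normalization are not given in the sources used here. Control and outlier spots were left out, spots of a probe were averaged, and log2 of the processed signal minus each array's 75th percentile was taken. Of 24684 probes, 24614 had a usable spot on every array. A probe was tested where either group had it well above background on its 3 arrays, by limma 3.58.1 (R 4.3.3, statmod 1.5.0; lmFit and eBayes, two-sided), with Benjamini-Hochberg adjustment over all 17930. No saturated spot was found. The number of arrays limits the precision, and the p-values measure the spread between these samples.

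Names came from RefSeq accessions in a GRCr8 gene table (14265 carried probes named). The table also lists Mrpl41l1, Mrpl42l1 and Mrps21l, and cross-hybridization of the Mrpl41, Mrpl42 and Mrps21 probes was not tested. The members and lists were chosen with earlier results of these data known. Named genes are members that passed, the 4 largest and 4 narrowest that did not, the 4 with the highest mean signal, and up to 4 passing genes per further list, or the one with the smallest p; Mrpl12, Mrpl44, Mrps18a and Mrps30 were added afterwards, as were the genes listed as dim or passing in another setting and the neighbours Klc4, Hira and Eme1. A gene taken by this rule is not reported here. Alternatives were median and quantile scaling, normexp (offset 50, on the median signal, since the files hold no mean signal), no filter or a filter on all 6 arrays, the deposited table, scan as a fixed or random block, and leaving out each array. Figures were drawn with matplotlib 3.10.9 from tables made with pandas 2.3.3 and numpy 2.4.6 in Python 3.11.15.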

Additional observations from a re-analysis of the deposited data

How the results depend on the processing

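The main analysis called 2 members higher and 2 lower with a median log2 fold change of -0.11. Setting each array to its median left 1 lower and turned the median to 0.077. Quantile normalization called 5 lower (8.93% of members, beside 9.24% of all probes) and the deposited log2 values gave 6 (10.7%, beside 9.87%). Without a filter on dim probes 0 were higher in limma (6 at an unadjusted p under 0.05), beside 3.21% of all probes, and testing only probes well above background on all 6 arrays gave 6 higher and 5 lower (21.6% of members, beside 36.0%). Scan as a block gave 0 higher (9 at an unadjusted p under 0.05), beside 8.43% of all probes, and as a random block 5 higher (8.93%, beside 11.6%). Without M25 and with scan as a block, added after seeing the data, 0 were higher and 0 lower in limma (0 and 3 at an unadjusted p under 0.05), beside 0.428% of all probes. Leaving out 1 array at a time gave 0 to 10 higher and 0 to 8 lower, with medians of -0.18 to -0.08. The highest counts came without C4 (32.1% of members, beside 41.2% of all probes) and the lowest without M25 (0 members, beside 2.83%). In other settings the counts did not move with those of all probes. With the deposited values 14.3% of members and 19.4% of all probes passed, where the main analysis had 7.14% and 19.3%. Of 16 settings, Mrpl40 passed in 14, Mrpl35 in 11, Mrpl27 in 8 and Mrpl54 in 6, each with 1 sign throughout. Mrps31 changed sign with median scaling (0.065). Mrpl13 changed sign with median scaling (0.081), normexp (0.047), scan as a block (0.0008) and that block without M25 (0.016). Mrpl4 changed sign with scan as a block (-0.11), as a random block (-0.029) and with the block without M25 (-0.10). The cause of these differences was not tested. No paired analysis was possible because the arrays of the 2 groups carry no shared replicate numbers. Signal over background limits the 7 untested members and the 5 tested with dim sham signal.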

Other observations

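Within the family, members were also read by promoter motif. The 15 tested members with the ETS motif CCGGAAG had a median log2 fold change of border zone over sham of 0.21, with 10 above 0. The 31 tested members with a promoter entry and without that motif had a median of -0.21, with 8 above 0. Against C4 alone the medians were 0.28 with the motif and -0.04 without it, and without M25 they were 0.21 and -0.17. Over all tested genes with a promoter entry, the 1411 with the motif had a median of 0.01 and the 7584 without it -0.05. For the NRF1 motif the members' medians were -0.10 in the 10 with it and -0.09 in the 36 without it. Against C4 alone these were 0.06 and -0.06. For the YY1 motif they were 0.19 in 8 and -0.12 in 38, and 0.02 and -0.03 against C4. For the E-box they were 0.24 in 5 and -0.12 in 41, and 0.40 and -0.03 against C4. The 4 motifs were compared after the members' values were known and none of these differences was tested.

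Only 1 pair of members was found to start beside each other, Mrpl46 and Mrps11, 234 bases apart on opposite strands. They did not share a sign, with log2 fold changes of 0.24 (limma adjusted p = 0.266) and -0.18 (limma adjusted p = 0.450). Against C4 alone the estimates were 0.007 for Mrpl46 and -0.35 for Mrps11.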
